A study of Mus musculus with 9 samples.

Results

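The genes described here encode the NF-kB transcription factors and the proteins that hold them back. They comprise 5 subunit genes (Nfkb1, Nfkb2, Rel, Rela and Relb) and 5 inhibitor genes (Nfkbia, Nfkbib, Nfkbid, Nfkbie and Tnfaip3), chosen by symbol for their known roles, and they make up 10 of the 24594 genes in the deposited table. All 10 passed the filter on low values used for testing, as did 11569 genes in all.

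The libraries came from thymocytes that carried the OT-II T cell receptor, which recognises an ovalbumin peptide on MHC class II. CD4 single-positive, CD69+, Vα2+ Vβ5+ cells were sorted from mixed bone marrow chimeras that had been reconstituted for 4.7 weeks with 3 kinds of marrow. One donor was the OT-II control (OT-II-ctl, the F1 of B6.Cg-Tg(TcraTcrb)425Cbn/J and BoyJ), another was OT-II on a C57BL/6 background lacking Nr4a1 and Nr4a3 (OT-II-DKO, Nr4a1-/-Nr4a3-/-), and the remaining marrow was wild type without the transgene. Hosts were either WT (BoyJ) or RIP-mOVA (F1 with BoyJ), in which the rat insulin promoter drives membrane-bound ovalbumin in medullary thymic epithelium, so that the sorted cells met their cognate self-antigen in the thymus. The paper on these data instead describes WT and RIP-mOVA mice alike as F1 offspring of RIP-mOVA and BoyJ parents. If the strain of the hosts did differ, it cannot be told apart from the antigen in any host comparison below. There were 2 OT-II and 3 DKO libraries from WT hosts, and 2 OT-II and 2 DKO libraries from RIP-mOVA hosts. OT-II and DKO libraries with the same number and host came from the same chimera, so the 9 libraries represent 5 animals.

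NF-kB proteins act as dimers. Rela, Rel and Relb carry activation domains, whereas Nfkb1 and Nfkb2 encode the p105 and p100 precursors, which are processed to p50 and p52 and which hold other subunits in the cytoplasm while they are intact. The IkB proteins encoded by Nfkbia, Nfkbib and Nfkbie bind dimers and are degraded after phosphorylation by the IKK complex, Nfkbid encodes the nuclear protein IkBNS, and Tnfaip3 encodes A20, a ubiquitin-editing enzyme that restrains signalling upstream of IKK. In thymocytes the pathway lies downstream of the T cell receptor and of TNF receptor family members, and several of its components are themselves known NF-kB target genes.

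Because that feedback runs through promoters, the start sites of these genes were searched for the NF-kB consensus motif, a 10-base sequence read on both strands. RefSeq promoter windows on GRCm38.p6, from 250 bases before to 50 bases after the start, were at hand for 8 of the 10 genes (13 windows), with no entry for Nfkb1 and Relb. At least 1 match was present in 8 of the 13 windows (61.5%) against 1480 of all 32851 windows (4.51%), and matches at 2 or more separate places, with overlapping matches counted once, were present in 4 of 13 (30.8%) against 0.167% of all windows. The windows are not independent, since 3 belong to Nfkb2, of which the second and the third share a match. The matches fell in windows of 6 genes (Nfkb2, Rel, Nfkbia, Nfkbid, Nfkbie and Tnfaip3), and the windows of Rela and Nfkbib held none. A match describes letters in the window and not a bound site. A relation between these matches and the host differences was not tested. The stretches of 30 bases below show the matches, but for Nfkb2 the first alone. Further Nfkb2 matches lay within chr19:46304716-46304745, chr19:46305449-46305478 and chr19:46305695-46305724. They are written 5′ to 3′ on the gene's strand with the match in capitals, and 11 capitals mark matches that overlap by all but 1 base.
Nfkb2, chr19:46304689-46304718, + strand: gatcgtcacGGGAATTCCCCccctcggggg
Rel, chr11:23771041-23771070, - strand: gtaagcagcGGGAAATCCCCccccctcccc
Nfkbia, chr12:55492657-55492686, - strand: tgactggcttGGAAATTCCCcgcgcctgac
Nfkbid, chr7:30422170-30422199, + strand: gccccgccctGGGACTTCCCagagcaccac
Nfkbid, chr7:30422215-30422244, + strand: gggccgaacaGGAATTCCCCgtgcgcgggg
Nfkbie, chr17:45555584-45555613, + strand: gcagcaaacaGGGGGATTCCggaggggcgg
Tnfaip3, chr10:19015516-19015545, - strand: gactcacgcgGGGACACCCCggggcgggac
Tnfaip3, chr10:19015403-19015432, - strand: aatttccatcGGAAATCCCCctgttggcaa
In the GENCODE vM21 annotation of GRCm38, the Nfkb2 stretch lay in an exon of Nfkb2 and in an exon of the antisense lncRNA AC114539.1, and the second Tnfaip3 stretch overlapped an exon of Tnfaip3. The other printed stretches lay outside annotated exons. Those of Nfkbid and the first of Tnfaip3 lay inside their genes, downstream of the first start.

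Expression was deposited as RPKM, reads scaled by exon length and by exonic reads in the library, which is a per-length scale on which genes can be ranked. Depth recovered from the smallest steps in the values was between 15520000 and 25050000 reads per library, and the 10 genes were each covered by at least 663 reads (Rel) and by up to 8573 reads (Nfkbia). The summed RPKM of 7 CD4 T cell markers was between 1641 and 1871 in every library. The summed RPKM of 6 myeloid and dendritic markers was 9.79 to 25.4 in WT hosts and 28.5 to 59.8 in RIP-mOVA hosts, that of 5 thymic epithelial markers 2.68 to 5.33 and 5.0 to 11.7, that of 3 regulatory T cell markers 1.05 to 5.2 and 5.96 to 20.5, and that of 4 B cell markers 2.56 to 5.38 and 4.09 to 8.38. The sum of 7 CD8 and double-positive markers was 114 to 124 and 79.3 to 120, mostly from Cd8b1 (54.5 to 96.4 RPKM). The myeloid sum was mostly Cd74, with Itgax between 0 and 0.158 RPKM, and the epithelial sum mostly Epcam, with Krt5 between 0 and 0.166 RPKM. Lyz2 was at 18.7 and 8.44 RPKM in replicates 1 and 2 of the OT-II libraries from RIP-mOVA hosts, against 0.879 to 7.54 RPKM in all other libraries. H2-Aa was at 1.31 and 1.43 RPKM in that group and at most 0.78 RPKM elsewhere, while Itgax, Csf1r and Flt3 overlapped the other libraries. Replicate 1 of that group had Ptcra at 2.5, Rag1 at 2.94, Rag2 at 0.849 and Cd8a at 7.6 RPKM. Replicate 2 had them at 0, 0.119, 0.047 and 3.64 RPKM. The regulatory T cell sum was mostly Il2ra, with Foxp3 at 1.9 and 3.31 RPKM in OT-II libraries of RIP-mOVA hosts and at most 0.491 RPKM elsewhere. The part of these cells in the host differences was not tested, and in bulk RNA a change in the number of cells of a type cannot be told apart from a change in RNA per cell. The gene-level values of the targeted genes were not lower in the libraries labelled DKO. Nr4a1 was at 60.7 and 86.1 RPKM in OT-II and 60.1, 80.2 and 87.7 RPKM in DKO libraries of WT hosts, and at 260 and 229 against 282 and 235 RPKM in RIP-mOVA hosts. Nr4a3 was at 0.181 and 0.189 RPKM in OT-II and 0.294, 0.665 and 0.188 RPKM in DKO libraries of WT hosts, and at 5.66 and 3.72 RPKM in OT-II and 16.5 and 14.1 RPKM in DKO libraries of RIP-mOVA hosts, where it was higher in both libraries labelled as lacking it. The files do not say which exons the reads came from, so the DKO genotype rests on the labels, and every direction between genotypes is one between libraries labelled DKO and OT-II.

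Nfkbia was the most abundant of the 10 transcripts in all 4 groups, followed by Nfkbid, and Nfkb1 had the lowest mean, although in OT-II cells of RIP-mOVA hosts it overlapped Nfkbie (9.63 against 9.60 RPKM in replicate 2). In OT-II cells of WT hosts the mean ± SD was 139 ± 16.2 RPKM for Nfkbia, 38.7 ± 0.251 RPKM for Nfkbid, 33.5 ± 0.0948 RPKM for Rela and 5.30 ± 0.696 RPKM for Nfkb1 (n = 2). Between these lay Nfkbib (16.2 RPKM), Nfkb2 (14.2), Relb (13.3), Tnfaip3 (8.50), Rel (7.92) and Nfkbie (7.46), where Nfkbib, Nfkb2 and Relb overlapped their neighbours, as did Tnfaip3, Rel and Nfkbie. In OT-II cells of RIP-mOVA hosts the order changed below Nfkbid. Nfkb2 (37.5 ± 4.13 RPKM) then overlapped Rela (33.8 ± 1.88 RPKM), and Rel (20.6 ± 2.73 RPKM) overlapped both Relb (22 ± 1.65 RPKM) and Nfkbib (18.7 ± 1.07 RPKM). In DKO cells of RIP-mOVA hosts Rela (35.8 ± 3.18 RPKM) and Nfkb2 (34.4 ± 8.50 RPKM) overlapped as well.

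**Figure D1:**
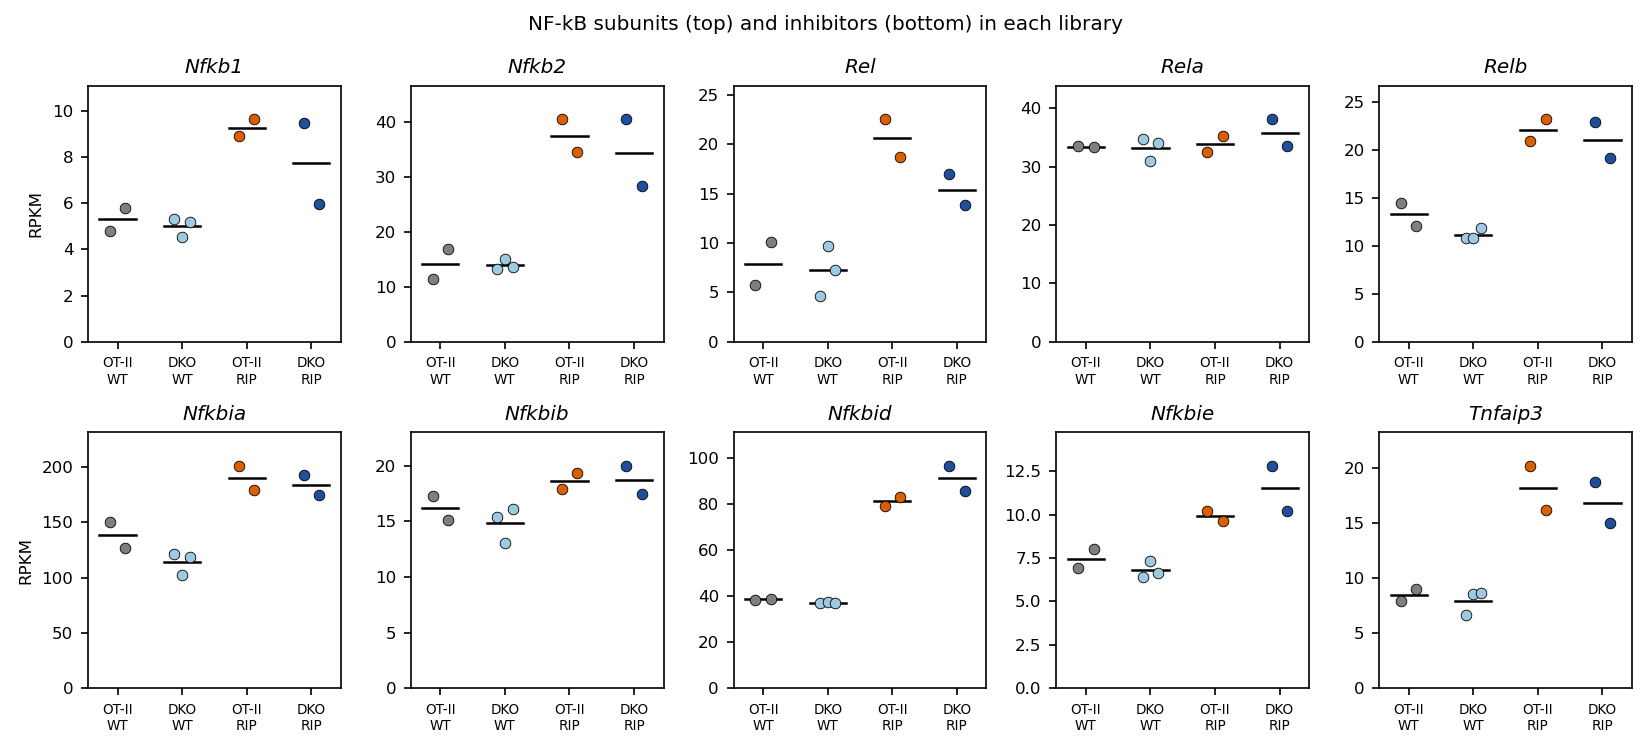
RPKM of the 5 subunit genes (top) and 5 inhibitor genes (bottom), 1 point per library and 1 line per group mean, with OT-II and DKO libraries of WT hosts to the left and of RIP-mOVA hosts (RIP) to the right, each vertical axis starting at 0. The RIP-mOVA libraries lie above the WT-host libraries of the same genotype for 9 of the 10 genes, Rela being the exception.

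The first comparison asked how the presence of the cognate self-antigen in the thymus related to these transcripts, in RIP-mOVA against WT hosts of the same genotype. Nfkb2, Nfkbid and Tnfaip3 were higher in RIP-mOVA hosts in both genotypes, and Rela lay in overlapping ranges. The 3 genes passed the test in OT-II cells, where 1.05% of all tested genes were called higher, and the same 3 passed in DKO cells, where 1.52% were. To be called, a gene needed a limma adjusted p (Benjamini-Hochberg, over all tested genes) no larger than 0.05 and a difference of at least 1 on the log2(RPKM + 0.5) scale, on which every log2 value below is given. Without regard to the test, 9 of the 10 genes had all RIP-mOVA libraries above all WT-host libraries in OT-II cells, against 19.4% of tested genes, and the same count held in DKO cells, against 22.7%. The median log2 difference of all 10 came to 0.73 for OT-II and 0.80 for DKO cells, beside -0.02 and 0.03 over all tested genes.

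Among the subunits, Nfkb2, the p100 precursor gene, had the largest difference in both genotypes. It measured 11.5 and 16.9 RPKM in OT-II libraries of WT hosts and 40.5 and 34.6 RPKM in those of RIP-mOVA hosts. In DKO libraries it measured 13.3, 15.1 and 13.7 RPKM in WT hosts and 40.5 and 28.4 RPKM in RIP-mOVA hosts. No library of a RIP-mOVA host was as low as any of a WT host. The log2 difference was 1.39 (SE 0.20, adjusted p = 0.012) in OT-II and 1.25 (SE 0.18, adjusted p = 0.0081) in DKO cells. The deposited description gives no strand setting, and exons of Nfkb2 overlap those of AC114539.1 and Psd on the other strand, so reads of these genes may not be separable. Nfkb2 lies on chr19:46304320-46312385, + strand, in GRCm38.

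Rel, which encodes c-Rel, had means 2.60-fold (OT-II) and 2.13-fold (DKO) higher in RIP-mOVA hosts but did not pass the test. It measured 5.72 and 10.1 RPKM in OT-II and 4.68, 9.74 and 7.23 RPKM in DKO libraries of WT hosts. The values in RIP-mOVA hosts were 22.5 and 18.7 RPKM in OT-II and 17.0 and 13.8 RPKM in DKO libraries. The host groups did not overlap, but the WT-host libraries of either genotype spread widely. The log2 difference was 1.37 (SE 0.32, adjusted p = 0.073) in OT-II and 1.09 (SE 0.29, adjusted p = 0.090) in DKO cells. Its interval of 95% in OT-II cells ended at 2.09, the widest reach of the 10 genes.

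Relb, whose protein pairs with p52 and p100, was significant below the fold threshold. OT-II libraries measured 14.5 and 12.1 RPKM in WT and 20.9 and 23.2 RPKM in RIP-mOVA hosts. DKO libraries measured 10.8, 10.8 and 11.9 RPKM in WT and 22.9 and 19.2 RPKM in RIP-mOVA hosts. The groups were well apart in both genotypes. On the log2 scale the difference was 0.71 (SE 0.13, adjusted p = 0.029) in OT-II and 0.88 (SE 0.12, adjusted p = 0.0048) in DKO cells.

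Nfkb1, the p105 precursor gene, did not pass. It measured 4.81 and 5.79 RPKM in OT-II libraries of WT hosts and 8.89 and 9.63 RPKM in those of RIP-mOVA hosts. The DKO libraries of RIP-mOVA hosts disagreed, at 9.48 and 5.98 RPKM, the lower of them close to the WT-host values of 5.32, 4.55 and 5.18 RPKM. The log2 difference was 0.76 (SE 0.19, adjusted p = 0.099) in OT-II and 0.55 (SE 0.18, adjusted p = 0.15) in DKO cells.

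Rela, which encodes p65, was the most even of the 10 across libraries. It measured 33.5 and 33.4 RPKM in OT-II libraries of WT hosts against 32.5 and 35.2 RPKM in those of RIP-mOVA hosts. In DKO libraries it measured 34.7, 31.0 and 34.0 RPKM against 38.1 and 33.6 RPKM. The host groups overlapped in both genotypes. The log2 difference was 0.01 (SE 0.10, interval of 95% from -0.21 to 0.24, adjusted p = 0.96) in OT-II and 0.11 (SE 0.09, interval from -0.10 to 0.31, adjusted p = 0.55) in DKO cells.

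**Figure D2:**
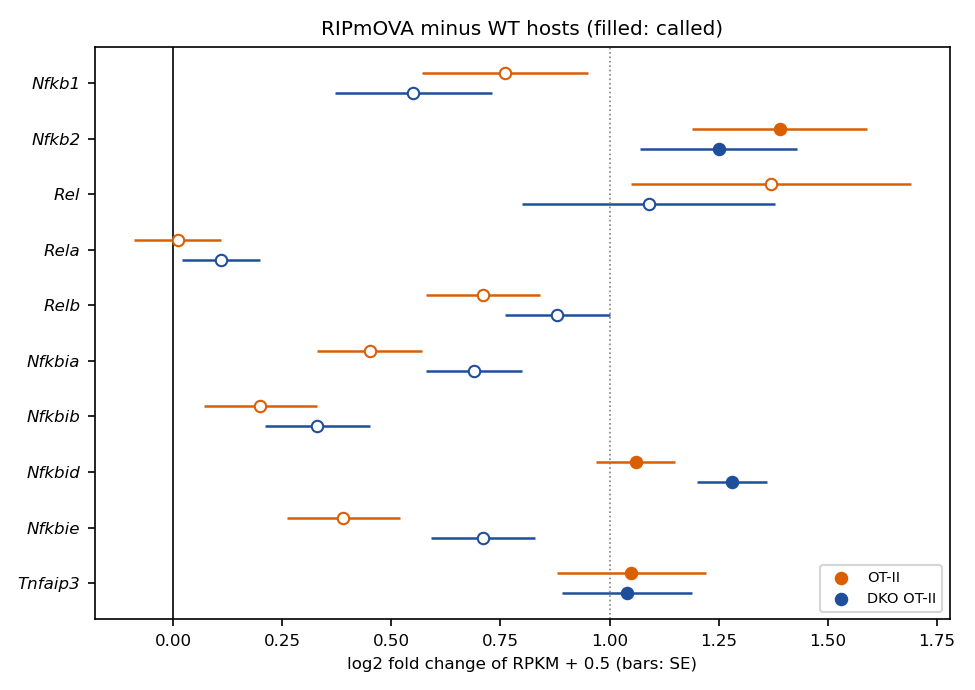
Log2 difference of RPKM + 0.5 between RIP-mOVA and WT hosts for each gene, with SE bars, in OT-II (orange) and DKO (blue) cells; filled points were called and the dotted line marks the threshold of 1. Nfkb2, Nfkbid and Tnfaip3 are filled in both genotypes, Rel lies past 1 with wide bars and is open, and Rela lies nearest to 0.

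The makeup of the subunit transcripts is given here as a description, with no test. Rela accounted for 42.6 to 50.4% of the summed RPKM of the 5 subunits in the libraries of WT hosts and for 25.9 to 33.3% in those of RIP-mOVA hosts. Nfkb2 accounted for 16.4 to 21.6% and for 28.2 to 32.3%. The summed subunit RPKM was 68.8 to 78.3 in WT hosts and 101 to 128 in RIP-mOVA hosts. The ratio of the precursor genes (Nfkb1 plus Nfkb2) to Rela was 0.487 to 0.681 in WT hosts and 1.02 to 1.52 in RIP-mOVA hosts. These 4 ranges did not overlap between hosts. The shares of the other 3 subunits overlapped, at 6.40 to 7.74% and 5.92 to 7.94% for Nfkb1, 15.2 to 20.7% and 16.7 to 19.1% for Relb, and 6.80 to 13.7% and 13.3 to 18% for Rel. These are shares of transcripts per length and not of protein.

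**Figure D3:**
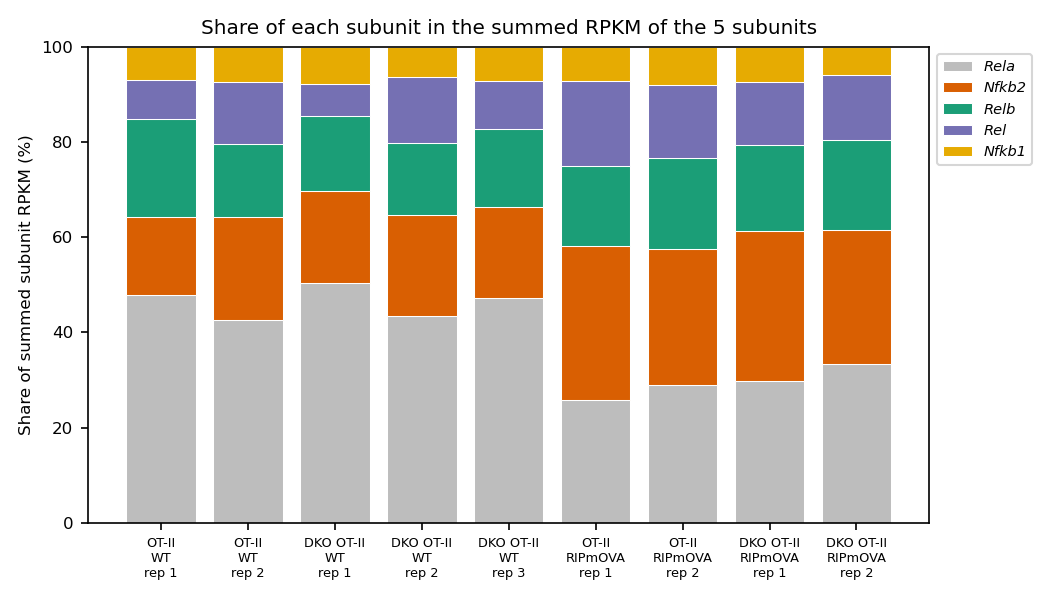
Share of each subunit gene in the summed RPKM of the 5 subunit genes, in percent, 1 bar per library with its group and replicate number. The Rela segment takes 42.6 to 50.4% in libraries of WT hosts and 25.9 to 33.3% in those of RIP-mOVA hosts, and the Nfkb2 segment is larger in the latter.

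Among the inhibitors, Nfkbid, which encodes the nuclear IkBNS, had the smallest SE in the fit over all libraries and the lowest adjusted p of the 10 genes. It measured 38.5 and 38.8 RPKM in OT-II and 37.1, 37.4 and 37.0 RPKM in DKO libraries of WT hosts. In RIP-mOVA hosts it measured 79.2 and 83.0 RPKM in OT-II and 96.5 and 85.6 RPKM in DKO libraries. Every RIP-mOVA library was far above every WT-host library. The log2 difference was 1.06 (SE 0.09, adjusted p = 0.00079) in OT-II and 1.28 (SE 0.08, adjusted p = 1e-04) in DKO cells. Nfkbid was the gene of the 10 that was called under all 22 alternatives run for each of these comparisons.

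Tnfaip3, the A20 gene, was also called in both genotypes. It measured 7.96 and 9.03 RPKM in OT-II libraries of WT hosts and 20.2 and 16.2 RPKM in those of RIP-mOVA hosts. In DKO libraries it measured 6.66, 8.55 and 8.62 RPKM in WT and 18.7 and 15 RPKM in RIP-mOVA hosts. The host groups were separate in each genotype. The log2 difference was 1.05 (SE 0.17, adjusted p = 0.019) in OT-II and 1.04 (SE 0.15, adjusted p = 0.0083) in DKO cells, both close to the threshold of 1.

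The classical IkB genes differed less. Nfkbia, the IkBα gene, measured 150 and 127 RPKM in OT-II and 121, 102 and 119 RPKM in DKO libraries of WT hosts. It measured 201 and 179 RPKM in OT-II and 193 and 175 RPKM in DKO libraries of RIP-mOVA hosts. The groups did not overlap, and the log2 difference was 0.45 (SE 0.12, adjusted p = 0.12) in OT-II and 0.69 (SE 0.11, adjusted p = 0.012) in DKO cells. Nfkbie, the IkBε gene, measured 6.90 and 8.01 against 10.2 and 9.60 RPKM in OT-II cells, a log2 difference of 0.39 (SE 0.13, adjusted p = 0.22). In DKO cells Nfkbie measured 6.42, 7.31 and 6.63 against 12.8 and 10.2 RPKM, a log2 difference of 0.71 (SE 0.12, adjusted p = 0.016). Nfkbib, the IkBβ gene, differed least among the inhibitors, by 0.20 (SE 0.13, adjusted p = 0.53) in OT-II and 0.33 (SE 0.12, adjusted p = 0.20) in DKO cells, with 13.1 to 17.3 RPKM in WT hosts and at least 17.5 RPKM in RIP-mOVA hosts. Exons of Nfkbib overlap Ccer2 and Sirt2 on the other strand.

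The transcripts of the 4 IkB genes summed to 160 to 213 RPKM in WT hosts and 288 to 322 RPKM in RIP-mOVA hosts. Nfkbid made up 18.1 to 23.4% of that sum in WT hosts and 25.7 to 29.9% in RIP-mOVA hosts, ranges that did not overlap. Set against the subunits, the IkB sum was 2.25 to 3.04 times the subunit sum in WT hosts and 2.40 to 2.86 times in RIP-mOVA hosts, ranges that overlapped.

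Calls of Nfkb2 and Tnfaip3 depended on single libraries: both missed the threshold in OT-II cells without RIP-mOVA replicate 1 (1.28, adjusted p = 0.13, and 0.90, adjusted p = 0.18) or replicate 2 (adjusted p = 0.057 and 0.052), and in DKO cells without RIP-mOVA replicate 1 (1.00, adjusted p = 0.062, and 0.88, adjusted p = 0.077), while Tnfaip3 also missed it in OT-II cells without WT-host replicate 1 (0.96, adjusted p = 0.098) and in DKO cells without WT-host replicate 1 (0.92). Rel passed in OT-II cells without OT-II WT-host replicate 2 (1.76, adjusted p = 0.028) or DKO WT-host replicate 1 (adjusted p = 0.048), and in DKO cells without DKO WT-host replicate 2 (1.32, adjusted p = 0.047), OT-II WT-host replicate 1 (adjusted p = 0.046) or OT-II WT-host replicate 2 (adjusted p = 0.048), and Relb passed in DKO cells without RIP-mOVA replicate 2 (1.01, adjusted p = 0.0080). Reads on 1499 sensory receptor genes, which thymocytes are not known to use, came to 1055 and 1501 RPM (reads scaled to library size) in DKO libraries of RIP-mOVA hosts and 420 to 1062 RPM in DKO libraries of WT hosts. OT-II libraries had 557 and 296 RPM in RIP-mOVA hosts and 1147 and 518 RPM in WT hosts. In RIP-mOVA hosts both DKO libraries thus lay above both OT-II libraries, so this level cannot be told apart from the genotype there. With this level as a covariate the log2 difference in DKO cells was 1.32 for Nfkb2 (adjusted p = 0.059) and 1.00 for Tnfaip3 (adjusted p = 0.082), and Nfkbid alone of the 10 was called.

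The second comparison asked whether the loss of Nr4a1 and Nr4a3 went with a different level of these transcripts inside the same host. None of the 10 genes was called between libraries labelled DKO and OT-II. Sensory receptor reads also separated the genotypes in RIP-mOVA hosts, as given above. In RIP-mOVA hosts, where 1.07% of tested genes were called in either direction by limma, 0 of 10 passed, 0 had an unadjusted p under 0.05 (2471 of all tested genes had), and limma-voom on recovered reads also called 0. Differences ran from -0.41 on the log2 scale for Rel (SE 0.32, interval of 95% from -1.14 to 0.31, adjusted p = 0.48) to 0.20 for Nfkbie (SE 0.13, interval from -0.10 to 0.50, adjusted p = 0.41). Rel was lower in both libraries labelled DKO (17.0 and 13.8 RPKM) than in both labelled OT-II (22.5 and 18.7 RPKM). Nfkbid was higher in both, with a log2 difference of 0.16 (SE 0.09, interval from -0.03 to 0.36, adjusted p = 0.30), and Nfkbie was higher in both by a margin that at its narrowest lay within rounding. The remaining 7 genes overlapped between the genotypes. The 3 genes without overlap stand beside 59% of all tested genes whose groups did not overlap in either direction, so the separation says nothing particular about them. Apart from Rel, the intervals lay between -0.72 (Nfkb1) and 0.50 (Nfkbie), so for the other 9 genes a difference of 1 on the log2 scale lay outside the interval.

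In WT hosts, where limma called 7 tested genes (0.0605%) and 2 with the chimera as a replicate block, 0 of the 10 genes passed, by limma-voom as well, and 1 had an unadjusted p under 0.05, beside 913 of all 11569 tested genes. That gene was Nfkbia, lower in all 3 libraries labelled DKO (121, 102 and 119 RPKM) than in both OT-II libraries (150 and 127 RPKM), with a log2 difference of -0.28 (SE 0.11, interval from -0.53 to -0.03, adjusted p = 0.57). Relb was likewise lower in every library labelled DKO, by -0.24 on the log2 scale (SE 0.12, interval from -0.51 to 0.02, adjusted p = 0.67). Nfkbid was too, by the small margin of 37.0 to 37.4 against 38.5 to 38.8 RPKM, a log2 difference of -0.06 (SE 0.08, adjusted p = 0.92). The other 7 genes overlapped, and 20.8% of all tested genes had groups that did not overlap in either direction, so 3 of 10 is near the background. All intervals in WT hosts lay between -0.79 and 0.53, both ends being those of Rel.

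**Figure D4:**
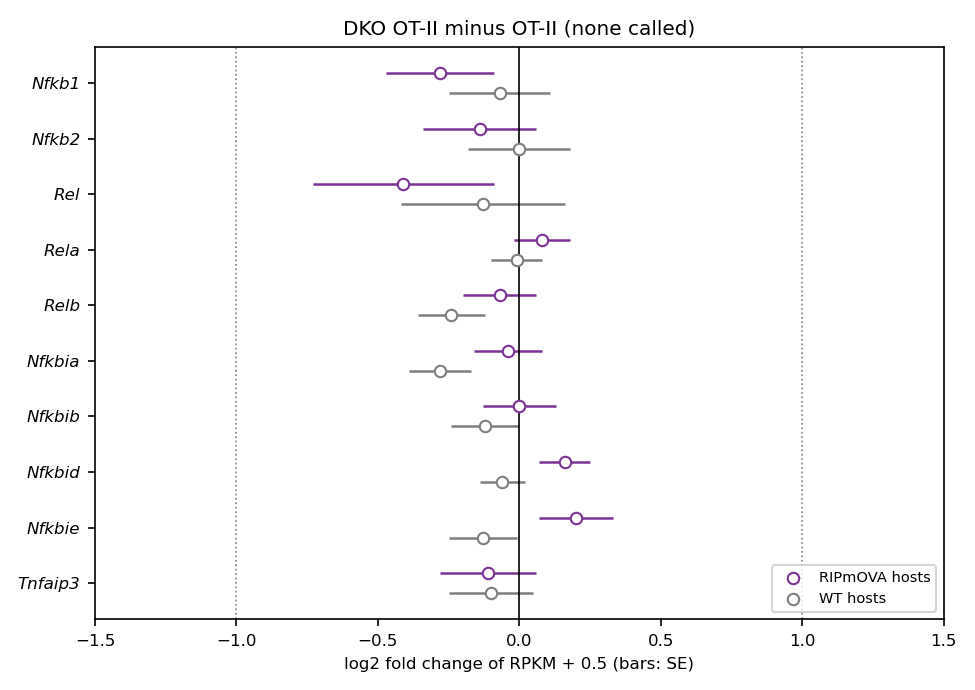
Log2 difference of RPKM + 0.5 between libraries labelled DKO and OT-II for each gene, with SE bars, in RIP-mOVA hosts (purple) and WT hosts (grey); open points were not called and dotted lines mark -1 and 1. All points lie between -0.41 and 0.20.

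The third comparison asked whether the host difference itself differed between genotypes. The interaction ran from -0.28 on the log2 scale for Rel (SE 0.43, interval from -1.26 to 0.69) to 0.33 for Nfkbie (SE 0.18, interval from -0.08 to 0.74, adjusted p = 0.57), and limma called 0 of the 10 genes, beside 2 of all tested genes (0.0173%) and 0 with the chimera as a replicate block. None of the 10 had an unadjusted p under 0.05, and limma-voom called 0. For Nfkbid the interaction was 0.22 (SE 0.12, adjusted p = 0.55) and for Nfkbia 0.24 (SE 0.16, adjusted p = 0.62). Nfkbia and Nfkbie had an adjusted p of 0.05 or less between hosts in DKO cells and not in OT-II cells, but their interactions did not pass, so a difference between the genotypes was not shown.

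The wider pathway was read from lists of its known parts. Of the other IkB-like genes, Nfkbiz and Bcl3, Bcl3 was called in DKO cells. Bcl3, a nuclear partner of p50 and p52, measured 14.5, 12.3 and 15.8 RPKM in DKO libraries of WT hosts and 51.4 and 48.4 RPKM in those of RIP-mOVA hosts, a log2 difference of 1.79 (SE 0.24, adjusted p = 0.0056). In OT-II libraries Bcl3 measured 19.4 and 9.39 RPKM against 23.7 and 26.8 RPKM, a log2 difference of 0.87 (SE 0.27, adjusted p = 0.17). In RIP-mOVA hosts the libraries labelled DKO were above the OT-II libraries for Bcl3 by 0.97 (SE 0.27, adjusted p = 0.097), and the interaction was 0.92 (SE 0.36, adjusted p = 0.52), neither passing.

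The genes that carry the signal to NF-kB were not called in either host comparison. Of all tested genes, 1.05% were called higher in OT-II and 1.52% in DKO cells. Lists this short would seldom hold a called gene at those shares, so the absence of calls says little. None of 22 genes of T cell receptor and IKK signalling, among them Malt1, Ikbkb and Map3k14, was called by limma in either genotype, and their median log2 difference between hosts was 0.06 in OT-II and 0.10 in DKO cells. None of 13 other feedback and negative regulators, such as Cyld, was called, with medians of -0.09 and 0.08. In DKO cells Birc3 (0.82, adjusted p = 0.0040), Otud7b (0.59, adjusted p = 0.049) and Tnip2 (-0.48, adjusted p = 0.038) of these lists lay below the fold threshold. Of 11 receptors that signal to NF-kB, 7 passed the filter and 4 were called higher in RIP-mOVA hosts in both genotypes. The shares of all tested genes were 1.05% and 1.52%, and the receptor medians were 1.16 and 1.46. The receptor genes called were Tnfrsf9 (4-1BB, log2 differences of 4.28 in OT-II and 2.82 in DKO cells), Tnfrsf4 (OX40, 2.44 and 3.43), Tnfrsf1b (TNFR2, 1.73 and 1.47) and Tnfrsf18 (GITR, 1.16 and 1.46). Tnfrsf9 was also the listed gene called between genotypes, lower in libraries labelled DKO of RIP-mOVA hosts (5.84 to 12.2 RPKM) than in OT-II (90.5 to 111 RPKM), by -3.49 on the log2 scale (SE 0.34, adjusted p = 0.0019). In WT hosts Tnfrsf9 was likewise lower in DKO (0.576 to 0.962 RPKM) than in OT-II libraries (3.46 to 6.28 RPKM), by -2.03 (SE 0.31, limma adjusted p = 0.08), which did not pass. The 7 tested receptor genes had medians of -0.44 in RIP-mOVA and -0.51 in WT hosts between genotypes, with 0 of them above 0 in either host. Of 24 known NF-kB target genes, 21 passed the filter, and 7 were called higher in OT-II and 9 in DKO cells. The same shares of all tested genes apply. Among those called, Cd83 (0.111 to 0.3 RPKM in WT hosts and 2.06 to 6.4 RPKM in RIP-mOVA hosts) passed the filter only through RIP-mOVA libraries. So did Ebi3 (0.249 to 1 and 1.94 to 5 RPKM), which was called in DKO cells alone. Such genes could hardly enter the test other than as higher, so their calls add little to these counts. None was called lower, and the medians were 0.52 and 0.55. The largest were Gadd45b, a stress-response gene (4.26 in OT-II and 4.31 in DKO cells), Cd83, an activation marker (3.06 and 2.57), and the anti-apoptotic paralogs Bcl2a1d (2.42 and 2.63) and Bcl2a1b (2.09 and 2.64), whose near-identical sequences leave the split of reads between them uncertain. In OT-II cells some of these calls rested on single libraries. Without WT-host replicate 1, RIP-mOVA replicate 1 or RIP-mOVA replicate 2, the adjusted p was 0.10, 0.19 and 0.072 for Bcl2a1b and 0.058, 0.15 and 0.057 for Tnfrsf18, and without RIP-mOVA replicate 2 it was 0.072 for Cd83. In DKO cells Cd83 had an adjusted p of 0.056 without RIP-mOVA replicate 1. The other 14 tested target genes were not called in OT-II cells, nor were the other 12 in DKO cells.

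**Figure D5:**
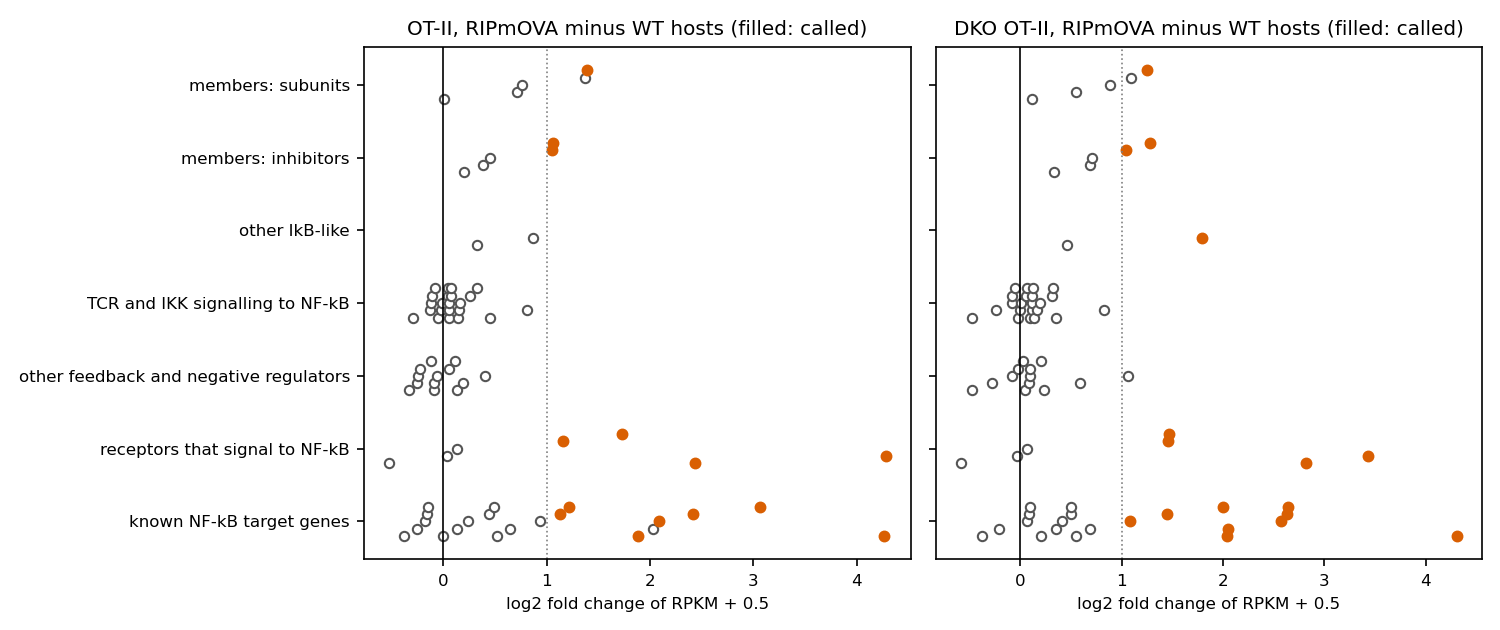
Log2 difference of RPKM + 0.5 between RIP-mOVA and WT hosts for each tested gene of 7 lists, 1 point per gene, in OT-II (left) and DKO (right) cells, with called genes filled and dotted lines at 1. Called genes appear among the subunits, inhibitors, receptors and target genes in both panels and none appears among the 22 genes of T cell receptor and IKK signalling.

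Across the 9 libraries, which fall into separate sets by host, Pearson's r of log2(RPKM + 0.5) describes which genes share a pattern, and it mostly carries the host difference. Nfkb2 and Tnfaip3 had r = 0.98 with each other, Relb had r = 0.96 with both Nfkbia and Nfkbid, and Rela had r between 0.15 (with Rel) and 0.73 (with Nfkbib). Outside the 10 genes, the closest to Nfkb2 were Mir155hg (r = 0.992), the host transcript of miR-155, and Dusp5 (r = 0.992), a phosphatase of ERK. Mir155hg (r = 0.987) and Nr4a1 (r = 0.983) were closest to Tnfaip3, Mxd1 (r = 0.994) and Tnfrsf4 (r = 0.988) to Relb, and H2-Oa and 2310001H17Rik (both r = 0.991) to Nfkbid. E2f3 (r = 0.977) and Cd24a (r = 0.971) were closest to Rel, Cd200 (r = 0.985) and Cd74 (r = 0.977) to Nfkbia, Nt5e and Ccl4 (both r = 0.977) to Nfkbie, Gpr15 (r = 0.972) and Ublcp1 (r = 0.962) to Nfkb1, and Grap (r = 0.957) and Srp54a (r = 0.946) to Nfkbib. Rela had the loosest neighbours, Smpdl3a (r = 0.918) and Adprh (r = 0.912). Gpr15 stayed between 0 and 1.22 RPKM.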

How the data were processed

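RNA from sorted thymocytes was amplified with SMART-seq v4 and sequenced with paired ends. The authors aligned reads with STAR to mm10, removed duplicates with Picard, counted exonic reads per gene with GENCODE vM17 annotation and deposited RPKM with 3 decimals, without further normalization; versions of the aligner and the use of strand are not given in the sources used here. Library depth was recovered from the steps of low values, of which 100% were whole reads in every library (tolerance 0.1 read). Genes at 1 RPKM or more in at least 2 libraries were tested with limma 3.58.1 (R 4.3.3; trend on, group means, all 9 libraries, two-sided) on log2(RPKM + 0.5), with calls needing an adjusted p no larger than 0.05 and an absolute log2 difference of at least 1. The script was tested on simulated data. Values were handled with Python 3.11.15. Replicates are separate animals within a genotype and host.

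Libraries of both genotypes with the same number and host came from the same chimera, as the mouse field of the labels states, so these numbers pair the genotypes within a host. Deviations from the group means correlated by 0.01 and -0.24 in WT-host pairs and by -0.08 in RIP-mOVA pairs. Libraries of the same genotype and number from different hosts, which are different animals, correlated by 0.10 to 0.23. The chimera as a replicate block was run as an alternative.

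The genes, the lists and the comparisons were chosen with earlier results of these data known. Named genes were the 10 genes, up to the 4 called genes with the largest difference per list and comparison, the 2 closest genes by correlation for each of the 10, markers and the targeted genes. Alternatives covered pseudocount, filter, scaling, trend, a background covariate, the groups compared alone, blocks, each library left out and the call rule.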

Additional observations from a re-analysis of the deposited data

How the results depend on the processing

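Of the 3 genes called between hosts in OT-II cells, 1 was called when only the libraries compared were fitted and 1 with the replicate number across hosts as a replicate block, and 1 to 4 were called when single libraries were left out. In DKO cells, 3 were called, 1 with the background covariate, 6 on the adjusted p alone, and 1 to 4 when single libraries were left out. The block by number and limma-voom on recovered reads were chosen after seeing the data; the number names different animals in the 2 hosts, and in DKO cells it left 2 called. Under it Nfkb2 and Tnfaip3 missed the threshold in OT-II cells (adjusted p = 0.058 and 0.066) and Nfkb2 in DKO cells (adjusted p = 0.067). With a pseudocount of 1, Tnfaip3 missed the fold threshold in DKO cells (0.99, adjusted p = 0.0079). The chimera as a replicate block left the calls at 3, 3, 0, 0 and 0 and changed no other call of the 10 genes. Between genotypes and for the interaction, 0 of the 10 genes were called under any alternative. Where a library left out leaves a group with a single library, that library is assumed to vary like the other groups.

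Of the other named genes, in OT-II cells Bcl2a1b was not called without the trend (adjusted p = 0.058), with the background covariate (0.064), with the block by number (0.071) or with voom (0.054), and Cd83 not with a filter at 5 RPKM (0.053) or with voom (0.052). In DKO cells Cd83 was not called with that filter (0.053) or the block by number (0.059), nor Bcl3 with the covariate (0.068).

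Directions turned only in differences that were not called, and the cause was not tested. With the background covariate Rela between hosts in OT-II cells was -0.04, Nfkb1 between genotypes in RIP-mOVA hosts 0.01, Nfkb2 between genotypes in WT hosts -0.01 and the Nfkb1 interaction 0.11. With quantile normalization Nfkb2 was -0.02 and Rela 0.00 between genotypes in WT hosts and the Tnfaip3 interaction was 0.04. With median-of-ratios rescaling Nfkbib between genotypes in RIP-mOVA hosts was -0.04. With voom Nfkb2 between genotypes in WT hosts was -0.02 and the Tnfaip3 interaction 0.01, which was 0.05 with the chimera as a replicate block. Leaving out single libraries gave -0.04 to 0.07 for Rela between hosts in OT-II cells. Between genotypes in RIP-mOVA hosts it gave -0.59 to 0.03 for Nfkb1, -0.39 to 0.11 for Nfkb2, -0.13 to 0.04 for Nfkbia, -0.09 to 0.10 for Nfkbib, -0.01 to 0.17 for Rela, -0.19 to 0.05 for Relb and -0.27 to 0.04 for Tnfaip3. Between genotypes in WT hosts it gave -0.19 to 0.05 for Nfkb1, -0.26 to 0.27 for Nfkb2, -0.51 to 0.26 for Rel, -0.04 to 0.04 for Rela and -0.18 to 0.02 for Tnfaip3. For the interaction it gave -0.52 to 0.10 for Nfkb1, -0.41 to 0.12 for Nfkb2, -0.67 to 0.10 for Rel and -0.17 to 0.14 for Tnfaip3.

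Over all tested genes, the number called was 142 between hosts in OT-II cells (53 to 296 over the alternatives), 194 in DKO cells (90 to 387), 124 between genotypes in RIP-mOVA hosts (20 to 295), 7 in WT hosts (2 to 102) and 2 for the interaction (0 to 165). Each of the 10 genes rested on at least 663 reads in every library, and groups held 2 or 3 libraries, which limits the precision.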

Other observations

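Birc3, which encodes a ubiquitin ligase upstream of IKK and is no member of the 10, was chosen here after its values were seen. It measured 16.1 to 17.6 RPKM in DKO libraries of WT hosts and 29.5 to 30.7 RPKM in those of RIP-mOVA hosts, a log2 difference of 0.82 (SE 0.10, adjusted p = 0.0040), below the fold threshold. In OT-II libraries it measured 19.9 to 23.4 RPKM against 24.0 to 28.2 RPKM, a log2 difference of 0.26 (SE 0.11, adjusted p = 0.34), and the interaction of 0.56 (SE 0.16) had an adjusted p of 0.44 by limma.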
